A study of Mus musculus with 2 samples.

Results

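The gastrocnemius, a calf muscle made mostly of fast fibres, was sampled from B6CASTF1/J males (hybrid mice of a C57BL/6J and a CAST/EiJ parent) at 14 days of age, and total RNA was read by long-read sequencing in 2 libraries of the same group, called replicate 1 and replicate 2. No treatment or second genotype was involved, and 2 µg of RNA entered each library. The labels give both libraries 1 donor identifier and describe several males, so the spread between them cannot be assigned to animals and may be technical. Outside the spike-in RNAs, replicate 1 held 1094607 reads and replicate 2 held 626289 reads. The fast-fibre gene Atp2a1 had 102580 and 37227 reads, and Acta1, the actin of skeletal muscle fibres, had 86933 and 45411.

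The models described here are those that the depositors' class NIC marks as unannotated combinations of known splice sites in an annotated gene. Models of the 2 libraries were joined by gene and by their full chain of introns, and a chain was kept if it had at least 2 reads in each library. By this rule 965 spliced models in 684 genes were selected on their read counts, out of 11121 NIC chains in replicate 1 and 5419 in replicate 2; all classes together gave 76063 and 50032 models. The counts therefore chose the members, and their levels and shares below are descriptions. One such model was found in 531 genes, and 13 genes had 5 or more. The members took 25631 reads of replicate 1 and 11726 reads of replicate 2, which is 2.34% and 1.87% of these libraries. At the edge of the rule, 351 members had exactly 2 reads in their lower library, with a median of 5 reads over both, while 795 NIC chains just outside had 1 read in one library and 2 or more in the other, with a median of 3 reads and at most 31.

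A gene is transcribed into a precursor RNA from which the spliceosome removes introns, joining a donor site at the 5′ end of each intron to an acceptor site at its 3′ end. Choosing other donors and acceptors, leaving an exon out or starting at another promoter gives several mRNAs from 1 gene, and skeletal muscle is known for extensive alternative splicing of contractile and calcium-handling genes. A combination of known sites can be new because 2 sites not paired in the annotation are joined, or because annotated pairs stand together in 1 RNA for which the annotation has no transcript. Where a change removes or adds a number of coding bases that is a multiple of 3, the reading frame continues; otherwise translation runs into another stop codon.

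The sequences below are those on which the results turn, from GENCODE M21 transcripts on mm10, written 5′ to 3′ on the coding strand, with the bases that differ between member and closest annotated transcript in capitals. In Oaz1 and Oaz2, which make ornithine decarboxylase antizyme, the inhibitor of polyamine synthesis, the capitals are bases that the annotation removes and the reads keep.
Oaz1, chr10:80828292-80828295, plus strand: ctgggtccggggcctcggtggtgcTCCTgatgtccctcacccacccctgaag
Oaz2, chr9:65686272-65686272, plus strand: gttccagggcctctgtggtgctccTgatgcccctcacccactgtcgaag
In Srl, which encodes the sarcoplasmic reticulum calcium-binding protein sarcalumenin, and Ctbp1, a transcriptional corepressor, the capitals are 3 bases between a pair of acceptors, kept by the leading member of each gene.
Srl, chr16:4493878-4493880, minus strand: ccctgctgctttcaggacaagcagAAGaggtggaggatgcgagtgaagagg
Ctbp1, chr5:33248684-33248686, minus strand: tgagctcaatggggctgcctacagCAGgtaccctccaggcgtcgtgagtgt
In Phb2 (prohibitin 2 of the inner mitochondrial membrane), Tnni1 (slow troponin I), Atp2a1 (the fast-fibre calcium pump SERCA1), Hacd1 (a fatty acid elongation enzyme) and Hnrnpk (an RNA-binding protein), the capitals are short annotated exons that the members lack.
Phb2, chr6:124716425-124716430, plus strand: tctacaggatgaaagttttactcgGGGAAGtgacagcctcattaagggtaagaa
Tnni1, chr1:135803282-135803285, plus strand: atgccggaagtTGAGaggaaatccaa
Atp2a1, chr7:126462500-126462517, minus strand: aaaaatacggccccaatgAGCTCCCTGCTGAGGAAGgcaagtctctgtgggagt
Hacd1, chr2:14044948-14044966, minus strand: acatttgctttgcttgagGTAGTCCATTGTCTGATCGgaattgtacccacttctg
Hnrnpk, chr13:58393853-58393868, minus strand: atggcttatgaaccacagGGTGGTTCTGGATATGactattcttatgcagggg
In Eno1 (alpha-enolase of glycolysis) an exon held by the member stands in place of an exon held by the closest annotated transcript, and both are shown.
Eno1 exon of the member, chr4:150241767-150241825, plus strand: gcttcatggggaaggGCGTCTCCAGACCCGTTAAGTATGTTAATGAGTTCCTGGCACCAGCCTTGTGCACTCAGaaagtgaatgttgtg
Eno1 exon of Eno1-202, chr4:150242122-150242180, plus strand: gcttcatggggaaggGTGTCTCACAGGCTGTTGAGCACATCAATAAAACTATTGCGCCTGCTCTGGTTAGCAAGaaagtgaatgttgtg
In Gbe1, the glycogen branching enzyme, the capitals are 4 bases that the annotated transcript takes from the end of one exon and the member takes from the start of the next.
Gbe1, chr16:70401850-70401853, plus strand: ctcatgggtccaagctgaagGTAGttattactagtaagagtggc
Coding exons left out by members of Mbnl2 (a muscleblind splicing regulator), Camk2d (a calcium/calmodulin-dependent kinase) and Nexn (the Z-disc protein nexilin), and those added by members of Dctn1 (a dynactin subunit) and Fbxo31 (an F-box protein), are given last.
Mbnl2, left out, chr14:120404638-120404732, plus strand: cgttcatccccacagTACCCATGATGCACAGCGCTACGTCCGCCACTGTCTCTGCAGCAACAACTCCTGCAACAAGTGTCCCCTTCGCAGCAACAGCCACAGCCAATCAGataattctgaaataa
Camk2d, left out, chr3:126808208-126808249, plus strand: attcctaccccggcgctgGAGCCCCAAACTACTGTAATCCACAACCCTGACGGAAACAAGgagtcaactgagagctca
Nexn, left out, chr3:152249660-152249701, minus strand: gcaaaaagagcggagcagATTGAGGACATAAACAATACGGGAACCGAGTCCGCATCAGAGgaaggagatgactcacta
Dctn1, added, chr6:83187764-83187784, plus strand: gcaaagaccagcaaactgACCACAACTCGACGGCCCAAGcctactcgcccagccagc
Fbxo31, added, chr8:121564638-121564724, minus strand: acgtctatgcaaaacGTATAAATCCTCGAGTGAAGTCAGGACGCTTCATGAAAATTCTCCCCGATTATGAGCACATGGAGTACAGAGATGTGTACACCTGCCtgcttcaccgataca

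The label of known sites was met by most members but not by all. In 822 members (85.2%, exact 95% interval 82.8 to 87.4) every donor and acceptor was annotated in the gene, and 10 members used a site annotated in another gene. The remaining 133 members, in 67 genes, used at least 1 site that GENCODE M21 does not list: 132 distinct sites, 69 donors and 63 acceptors, of which 34 lay within 10 bases of an annotated site. All 132 sites also stood in models of the class with new splice sites, in both libraries. These 133 members held 25.9% of member reads in replicate 1 and 21.7% in replicate 2, and 16 of them were in Atp2a1, 10 in Myl1 (fast myosin light chain) and 10 in Tnnt3 (fast troponin T).

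Most members joined introns that were each already annotated. Every intron was annotated in 646 of the 965. These chains were split end to end into the fewest runs of introns that each stand in 1 annotated transcript. In 577 there were 2 runs, in 64 there were 3, and in 5 there were 4 or more. A chain can return to the same transcript, so 3 or more runs need not mean as many transcripts. The other 319 members held a donor-acceptor pair that no annotated transcript of the gene has, 175 with 1 such pair and all sites annotated. Members had a median of 10 exons, with a range of 2 to 71, and a median level of 5.71 counts per 1000000 reads (CPM). A few dominated the reads: the 10 members with most reads took 46.5% of member reads in replicate 1 and 41.6% in replicate 2.

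Each member was set against the annotated transcript of its gene that shares the most introns. A skipped exon was the most frequent single difference, in 169 members (17.5%, 95% interval 15.2 to 20.1). Another acceptor was used in 133 members and another donor in 103. A replaced first exon was found in 93 members, further 5′ exons in 92, an included exon in 83 and further 3′ exons in 63. Further exons are ones that the closest transcript lacks and are mostly annotated in the gene. Every intron was annotated in 72 members with further 5′ exons and in 53 with further 3′ exons. An intron was cut out of an annotated exon in 52, an annotated intron was kept in 32 and the last exon was replaced in 12. The other 133 members combined 2 or more kinds and held 27.1% of member reads in replicate 1 and 22.6% in replicate 2, mainly through Atp2a1.

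**Figure D1:**
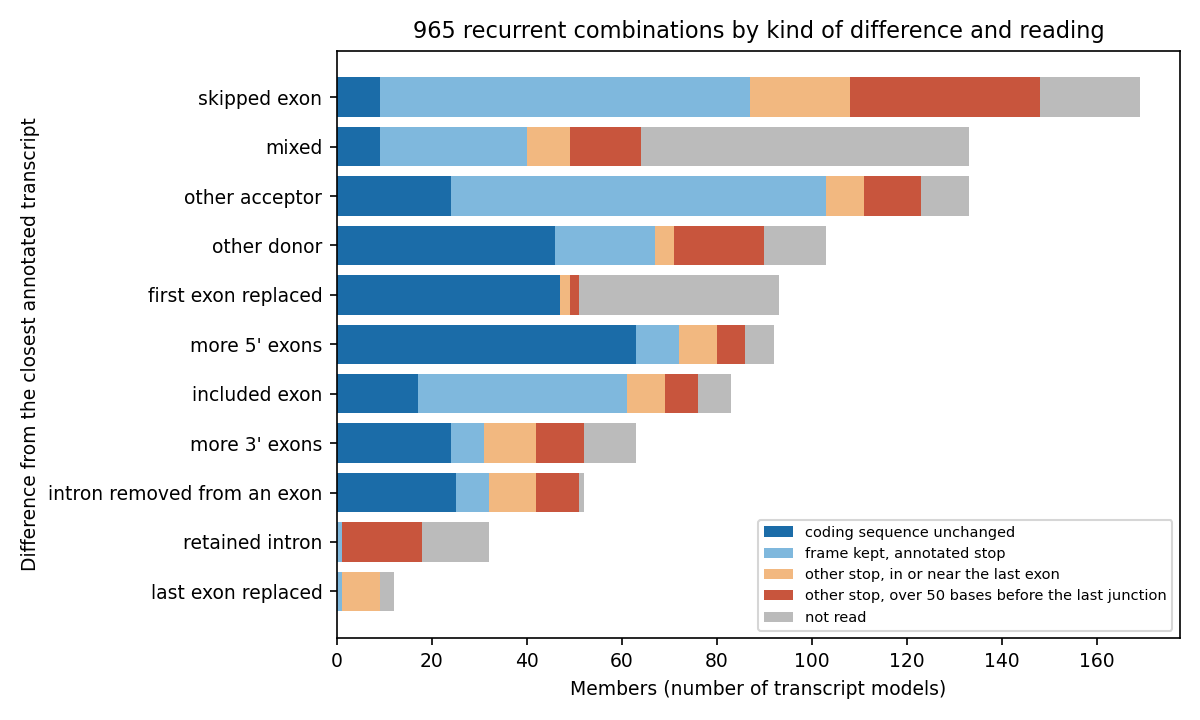
Members by kind of difference from the closest annotated transcript (rows; x axis, number of models), coloured by what reading from the annotated start found. Skipped exons are the longest bar (169 members), and retained introns (32) have a single member that kept the annotated stop.

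The share of gene reads ran from 0.00366% to 100% of the gene. Its median over members was 9.84% (mean of the 2 libraries per member; quartiles 2.80% and 23.3%), with medians of 8.47% in replicate 1 and 10.1% in replicate 2. In both libraries 402 members had 10% or more of their gene, 50 members had 50% or more, and 127 had under 1%. Leading models were sought only among annotated models, NIC models and models with new splice sites, not among partial ones. By this measure 178 members led their gene in both libraries. Of these, 40 were among the 445 members in genes with at least 50 reads in each library. By kind, the median share was highest for included exons (14.4%) and further 3′ exons (13.9%) and lowest for retained introns (3.25%). Members with an unannotated site had a median of 1.71%, against 11.7% for members with all sites annotated.

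**Figure D2:**
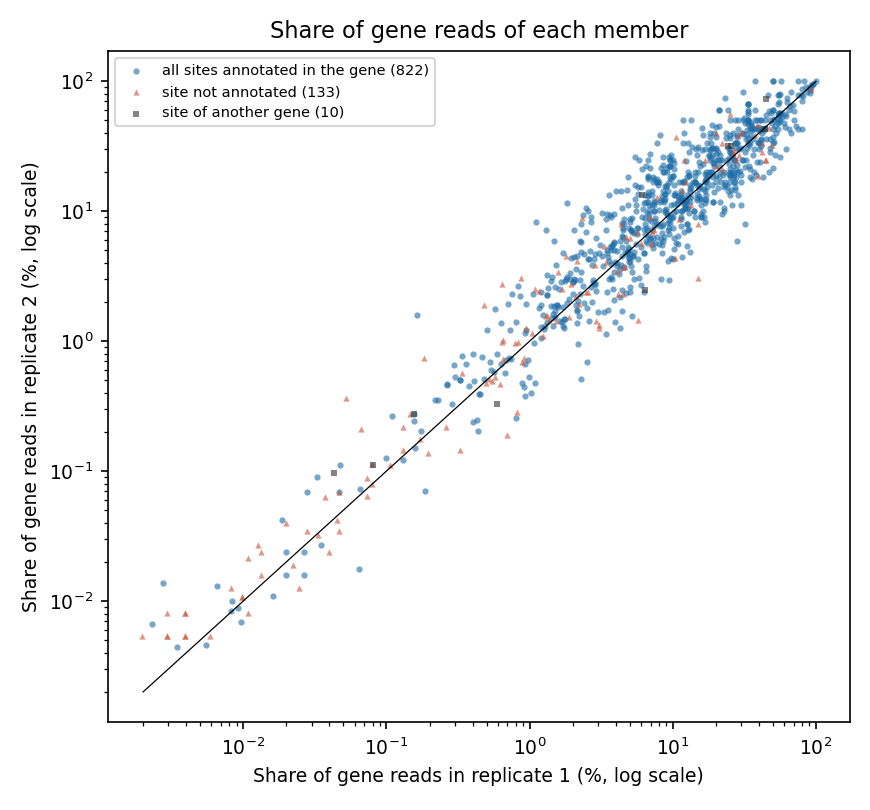
Share of gene reads of each of the 965 members in replicate 1 (x axis) and replicate 2 (y axis), in percent on log scales, with the line of equal shares. Points follow the line over the whole range, and the 133 members with an unannotated site lie mostly at low shares.

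Among genes with at least 50 reads in each library, the 12 members of highest share include enzymes, mitochondrial proteins and a contractile protein. Oaz1 led with 1752 of 1829 reads in replicate 1 and 1079 of 1126 in replicate 2 (95.8% ± 0.0254, SD, n = 2). The Phb2 member had 182 of 190 and 73 of 77 reads (95.3% ± 0.696). That of Mpc1, a subunit of the mitochondrial pyruvate carrier, carried further 5′ exons and had 223 of 240 and 136 of 145 reads (93.4% ± 0.620). For these 3 genes the exact intervals of the libraries overlapped. Oaz2 had 533 of 579 and 209 of 233 reads (90.9% ± 1.67). Hacd1 had 361 of 393 and 236 of 270 reads (89.6% ± 3.15), and Eno1 had 649 of 724 and 263 of 297 reads (89.1% ± 0.770). In each of these 6 genes most reads followed a chain with no annotated transcript, though some differences were small. Oaz1 and Oaz2 differed by annotated gaps of 4 bases and 1 base, and Phb2 by an exon of 6 bases. Hacd1 lacked a 19-base exon and had a donor moved by 27 bases. The others were Idh3b (isocitrate dehydrogenase, 86.0% ± 5.84), Tmed2 (vesicle transport, 79.7% ± 2.81), Tnni1 (78.2% ± 0.629), Cops7a (COP9 signalosome, 65.6% ± 4.38), Csnk1g2 (casein kinase 1, 64.3% ± 7.73) and Mbnl2 (62.4% ± 2.89).

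**Figure D3:**
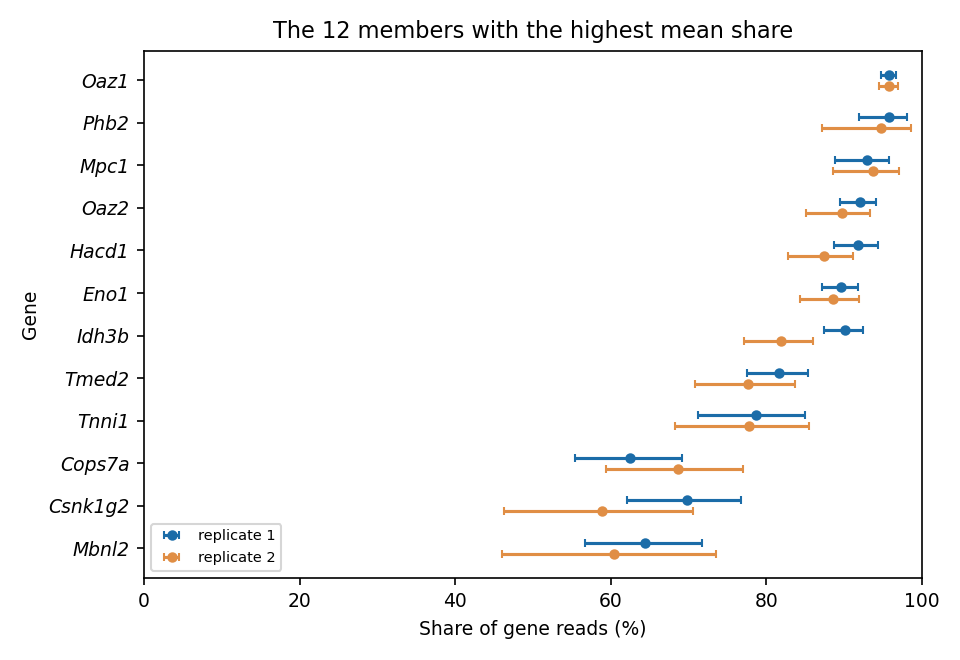
Share of gene reads (x axis, percent) of the 12 members with the highest mean share in genes with at least 50 reads in each library, per library with exact 95% intervals. The intervals of the 2 libraries do not overlap for Idh3b (90.2% and 81.9%) and overlap for the other 11, and the 3 lowest genes have the widest intervals.

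In both antizyme genes the difference was of 4 bases or fewer. The closest transcript Oaz1-201 has an annotated gap of 4 bases, and Oaz2-206 has one of 1 base. Ribosomes are known to shift frame on antizyme mRNA at a stop codon, and in the sequences above that TGA begins with the last capital. Read from the annotated start without a shift, the members end early, with a change of -474 coding bases in Oaz1 and -471 in Oaz2. Of the 32 members classed as keeping an intron, 5 kept only introns under 30 bases and 27 kept longer ones. The most abundant with longer introns were in Acta1, skeletal alpha-actin, with 56 of 86933 reads in replicate 1 and 8 of 45411 in replicate 2, and in Map7d1, a microtubule-associated protein, with 28 of 450 and 21 of 201 reads.

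Skipped exons differed in their reads by length. Members left out 287 distinct exons with a median of 102 bases. For each, all spliced reads that reach across the exon were counted as holding it, lacking it or holding part of it. Counting exons that 10 or more such reads spanned in both libraries, 5 skipped exons were of 1 to 10 bases and 20 of 11 to 20 bases. Each of them was held by under 10% of reads, and the median was 0% in both size classes. Of 218 skipped exons over 30 bases, 14 were held by under 10%, 105 by over 90%, and the median was 88.9%.

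The Phb2 exon of 6 bases was held by 0 of 187 reads in replicate 1 and 0 of 76 in replicate 2, which allows up to 1.60% and 3.95%. The Tnni1 exon of 4 bases was held by 0 of 141 and 0 of 90 reads, which allows up to 2.13% and 3.33%. The 18-base exon of Atp2a1 was held by 0 reads of replicate 1 against 98908 without it, and by 1 read of replicate 2 against 35910 without it. The 16-base Hnrnpk exon was absent from 258 and 109 reads and the 19-base Hacd1 exon from 387 and 265 reads, with no read that held either. Internal coding exons that every coding transcript spanning them has were also counted. Exons that members skip, such as that of Atp2a1, were not taken out, so this set is not independent of the members. In it, 5 of 5 exons of 1 to 10 bases and 14 of 20 exons of 11 to 20 bases were held by under 10% of reads. Of 15926 exons over 30 bases, 20 were. Those over 30 bases had a median of 100% in both libraries.

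Members that lack a short exon often differed at another site as well. Of 57 members that skip an exon of 20 bases or fewer, in 22 genes, 38 also used another donor or acceptor, and 37 of these 38 had an unannotated site. Of 190 members that skip a longer exon of over 30 bases, 16 also used another donor or acceptor. In Hnrnpk and in Pitpnb, a phosphatidylinositol transfer protein, the donor moved by as many bases as the exon has, 16 and 8. In Atp2a1 the donor moved by 26 bases beside the 18-base exon, in Hacd1 by 27 beside 19 and in Tnnt1 (slow troponin T) by 12 beside 14. These 57 members held 22.3% of member reads in replicate 1 and 18.1% in replicate 2. The part of exon length in these differences was not tested.

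**Figure D4:**
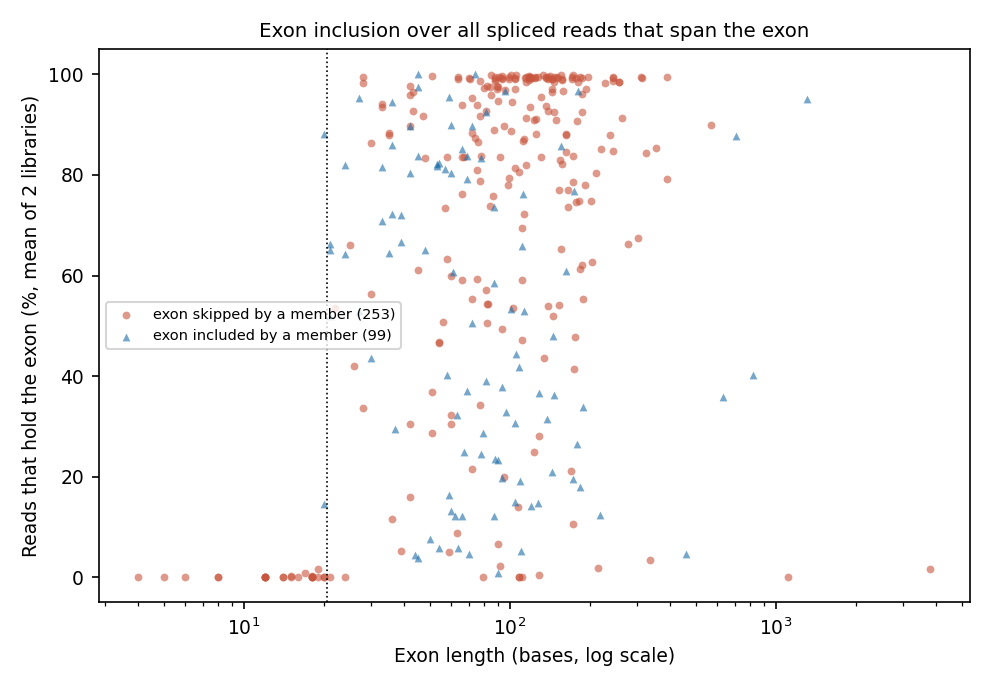
Percentage of spanning spliced reads that hold each exon (y axis, mean of 2 libraries) against exon length (x axis, log scale), for exons that members skip (circles) or include (triangles) with at least 10 spanning reads in each library; the dotted line separates exons of 20 bases or fewer. The skipped exons to its left (5 of 1 to 10 bases and 20 of 11 to 20 bases) lie at the floor, and longer ones mostly lie high, with a median of 88.9% over 30 bases.

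Longer exons gave graded values. The 95-base Mbnl2 exon was held by 32 reads of replicate 1 and lacked by 124, and in replicate 2 by 10 and 41, an inclusion of 20.0% ± 0.548 (SD, n = 2). The 42-base Camk2d exon had an inclusion of 30.5% ± 0.731, and the 42-base Nexn exon one of 15.96% ± 4.89. The 303-base exon of Ttn, the giant sarcomere spring titin, had 67.4% ± 4.05. In the other direction, the 21-base Dctn1 exon was held by 51.9% ± 2.43 of reads, the 87-base Fbxo31 exon by 73.7% ± 2.50 and the 24-base exon of the transcription factor Mef2a by 82.0% ± 2.83. The largest member of Atp2a1, with 4199 and 1286 reads, also lacked a 42-base exon near the 3′ end. Adult SERCA1a is known to hold such an exon and neonatal SERCA1b to lack it; at 14 days it was held by 95.5% of reads in replicate 1 and 96.1% in replicate 2.

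One exon stood in place of another in Eno1. The member held a 59-base exon in place of the equally long exon of Eno1-202, and the 2 exons had the same base at 30 of 59 positions (50.8%). Over all spliced reads that reach across, the exon of the member was held by 95.6% ± 0.782 and the one of Eno1-202 by 5.04% ± 0.253. Both have the same length, and the annotated stop was kept. Among the 133 members with several differences, 7 held such an exchange and 14 had no net change of length.

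Alternative acceptors lay close together. Of 160 distinct acceptor differences, 67 were of exactly 3 bases, in 79 members and 67 genes, and 112 were multiples of 3 (70.0%, 95% interval 62.3 to 77.0). Of 132 distinct donor differences, 50 were multiples of 3 (37.9%, 29.6 to 46.7), and 17 were of 4 bases. The 3 bases between the acceptors could be read in 63 of 67 cases, and all 63 ended in AG on the coding strand. An intron usually closes with AG, so an acceptor 3 bases further on must show this, and the count only describes the sites as tandem acceptors. The exon was longer by 3 bases in all members of 24 cases, shorter in 40 and both in 3.

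The Srl member that keeps AAG had 2036 of 3604 reads in replicate 1 and 718 of 1268 in replicate 2 (56.6% ± 0.0932). A second Srl member lacked these bases and had 81 and 29 reads (2.27% ± 0.0280). In Ctbp1 the member with CAG had 243 of 446 and 109 of 212 reads (52.9% ± 2.17). The member of H2afy, a macroH2A histone, was 3 bases shorter and had 66 and 23 reads (56.3% ± 0.221), and that of Cars2, a mitochondrial cysteinyl-tRNA synthetase, had 14 and 9 reads (58.6% ± 3.27). A 3-base acceptor of Mef2c, a muscle transcription factor, was used in 15 and 6 reads and left the coding sequence unchanged.

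**Figure D5:**
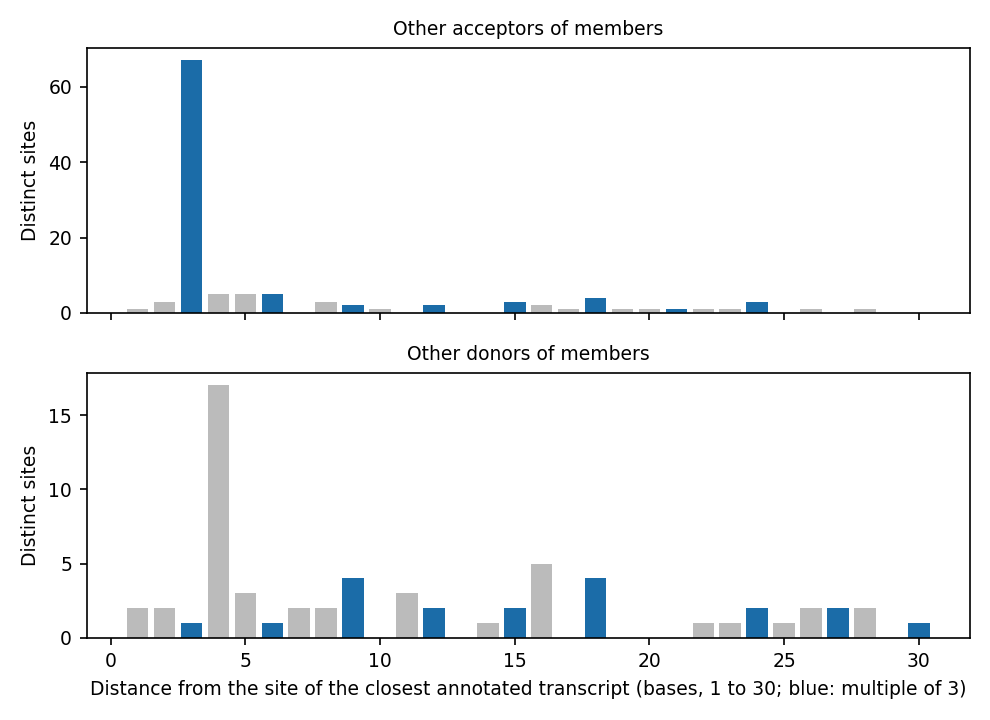
Number of distinct alternative acceptors (upper panel) and donors (lower panel) of members by distance from the site of the closest annotated transcript, 1 to 30 bases, with multiples of 3 in blue. Acceptors peak at 3 bases (67 sites) and donors at 4 bases (17 sites).

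Some differences changed the chain but not the RNA. In Gbe1, Mta1 (a chromatin remodelling subunit) and Mul1 (a mitochondrial ubiquitin ligase) the donor and the acceptor moved by the same 4, 5 and 1 bases, and the spliced sequence between the shared ends was identical to that of the closest transcript over 2982, 2793 and 1583 bases. The Gbe1 chain had 63 of 74 and 26 of 29 reads (87.4% ± 3.20). These 3 were found among 875 members whose sequence could be compared.

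Reading from the annotated start gave a result for 768 members. The annotated stop was kept by 542 (70.6%, 95% interval 67.2 to 73.8): the coding sequence was unchanged in 264, and changed with the frame kept in 278. Coding sequences were compared by genomic position, so the 278 include Gbe1, whose spliced sequence was the same. Of these 278, 166 had a shorter coding sequence, 108 a longer one and 4 one of the same length, the median size of the change was 60 bases, and 14 equalled another annotated coding sequence. In 137 members the new stop lay more than 50 bases before the last junction, a position often linked to nonsense-mediated decay, and in 89 it lay later. The 137 include Oaz1 and Oaz2, which differ by annotated gaps of 4 bases and 1 base and were read without a frame shift. They also include Tnni1 (-513 coding bases) and Hnrnpk (-288), whose skipped exons of 4 and 16 bases no read held. In Hnrnpk the donor also moved by 16 bases. All stops were read from GENCODE sequence at the positions of the model, not from the bases of the reads. Decay was not tested. The annotated start was missing in 107 members and part of the sequence was not held for 79. By kind, the stop was kept by 47 of 51 members with a replaced first exon. All 47 had an unchanged coding sequence, and 42 others of this kind lacked the annotated start and were not read. Their count is therefore not comparable with the other kinds. The stop was kept by 103 of 123 members with another acceptor and 61 of 76 with an included exon. With a skipped exon it was kept by 87 of 148, and with a retained intron by 1 of 18.

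Exon lengths were compared in the same way. Of 26 annotated internal coding exons that members included, 23 had a length divisible by 3 (88.5%, 95% interval 69.8 to 97.6). Of 257 that members skipped, 125 did (48.6%, 42.4 to 54.9), and of all 7699 such exons of the same genes 3334 did (43.3%, 42.2 to 44.4). The interval of included exons lies above both others, and that of skipped exons overlaps the background. By definition the 26 included exons are annotated but absent from the closest annotated transcript, and the background was not limited in this way. The comparison therefore cannot decide whether the difference belongs to the new combinations. Members with 10% or more of their gene in both libraries kept the stop in 258 of 340 cases (75.9%, 71.0 to 80.3), and those with under 1% in 39 of 67 (58.2%, 45.5 to 70.2). Because several members share a gene or an exon, these intervals treat dependent models as independent.

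A replaced first exon usually came from another annotated promoter of the gene: in 85 of 93 members its donor was the first donor of another annotated transcript. In 47 of the 93 the coding sequence was unchanged and in 42 the annotated start was absent. Ndrg2, of the N-myc downstream-regulated family, had the most reads, 850 of 2046 in replicate 1 and 346 of 1089 in replicate 2 (36.7% ± 6.91). Eml1, a microtubule-binding protein, had 67.2% ± 2.70, and Xpnpep1, an aminopeptidase, 51.1% ± 0.496. Cfl2, the muscle cofilin, had 7.60% ± 1.14. Of 12 members with a replaced last exon, 11 used the last acceptor of another annotated transcript, the most abundant in Cyhr1 (53.4% ± 8.50). Sema4d, a semaphorin, had 51 of 129 and 20 of 59 reads (36.7% ± 3.99), Mgrn1, a ubiquitin ligase, 18.6% ± 0.662 and Tpm3, the slow-fibre tropomyosin, 1.68% ± 0.289.

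Against their closest annotated transcripts, other abundant members added exons or cut an intron out of one. The Acta1 member with an added 90-base exon had 628 of 86933 reads in replicate 1 and 336 of 45411 in replicate 2 (0.731% ± 0.0124) and an unchanged coding sequence. The member of Bin1, a membrane-curving protein of T-tubules, had 382 of 1015 and 160 of 416 reads (38.0% ± 0.584). It held an added 45-base exon whose acceptor and donor are both unannotated. Over all spliced reads of Bin1 that reach across, this exon was held by 97.4% ± 0.836. Further 3′ exons were found in Fhl1, a muscle LIM protein, with 161 of 544 and 80 of 389 reads (25.1% ± 6.39), and in Actb, cytoplasmic beta-actin, at 16.9% ± 0.161. They are further only against the closest transcripts, Fhl1-207 and Actb-206, and every intron of both members is annotated in its gene. An intron was cut out of an annotated exon in Ptov1, with 134 of 240 and 68 of 124 reads and no change of coding sequence (55.3% ± 0.703). The same kind of difference took 21 coding bases out of Cnbp, a zinc-finger protein that binds nucleic acids (11.2% ± 1.14), and 87 out of Fxr1, an RNA-binding protein (20.8% ± 8.81). A skipped 107-base exon of 4833439L19Rik left the coding sequence unchanged, with 104 of 221 and 60 of 101 reads (53.2% ± 8.73).

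By function, contractile genes held many members at low shares, as did highly read genes in general. Over all spliced genes with 20 or more reads in each library the median share was 5.20%. It was 9.497% in genes of 20 to 99 reads in replicate 2, 2.48% from 100 to 499, 0.516% from 500 to 1999 and 0.0314% from 2000. Of 27 measured thin and thick filament genes with at least 20 reads in each library, 19 had a member. The whole list held 62 members with a median share of 0.165%, and the highest was Tnni1. Here and below, member totals and median shares of a list also cover its genes under 20 reads. Of 25 calcium-handling genes 13 had one (40 members, median 0.381%, highest Srl), and of 33 Z-disc and costamere genes 12 (median 1.96%, highest Nexn with 26.7% ± 12.7). Splicing factors had members in 9 of 19 genes with a median of 7.85%, led by Mbnl2 and Hnrnpk. Mitochondrial energy genes had them in 10 of 43, led by Idh3b, with Opa1, an inner-membrane fusion protein, next at 36.2% ± 0.257. Glycolysis and glycogen genes had them in 7 of 25, with a median share of 0.307%.

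Ribosome and translation genes had members in 6 of 28, with Eef1d, an elongation factor subunit, at 55.0% ± 7.07 and the ribosomal protein gene Rpl3 at 4.66% ± 5.03, and ubiquitin genes in 3 of 21, with the conjugating enzyme Ube2d3 at 40.6% ± 0.832. Myogenic and transcription factor genes had them in 3 of 11, with Srf at 16.4% ± 5.12 and Mef2c at 13.5% ± 1.84. Neuromuscular genes had them in 3 of 8. Among these Ank1, the membrane-skeleton ankyrin, had 5.66% ± 0.531 and Ache, acetylcholinesterase, 5.14% ± 4.05; Chrne, an acetylcholine receptor subunit with 19 reads in replicate 2 and so under the limit of 20, had 17.4% ± 12.5 from 3 of 35 and 5 of 19 reads. Among genes of other cell types, 1 of 15 matrix genes had a member (Bgn, 3 and 2 reads) and 1 of 3 nerve and Schwann genes (Pmp22, 29 and 45 reads), while 0 of 6 endothelial and 0 of 4 blood genes had one. Over all 2657 spliced genes with at least 20 reads in each library 432 had a member (16.3%), and the share of genes with one was 13.6%, 22.8%, 26.4% and 60.7% in genes of 20 to 99, 100 to 499, 500 to 1999 and at least 2000 reads in replicate 2. The lists differ in reads per gene, and the part of depth in their counts and median shares was not tested.

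The genes with the most members were of the contractile and calcium-handling systems, glycolysis and cell-cycle control. Atp2a1 had 17, with 4.24% of its reads in replicate 1 and 3.63% in replicate 2, and Myl1 had 16, with 2.31% and 2.38%. Eno3, the muscle enolase, and Tnnt3 had 10 each; the Tnnt3 members took 12.1% and 11.2% of its reads, and all 10 used an unannotated site and lacked a 14-base exon. Cdkn1c, an inhibitor of cyclin-dependent kinases, had 9, with 43.4% and 40.8% of its reads, led by a form with a further 5′ exon (20.9% ± 2.39).

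With 1 group, the only comparison possible was between the 2 libraries, and it does not compare conditions. Fisher's exact test, two-sided, was run for every spliced chain of the annotated and unannotated complete classes with at least 10 reads over both libraries. At a Benjamini-Hochberg adjusted p under 0.05, 10 of 512 members tested differed (1.95%), against 206 of 6970 chains of all classes (2.96%) and 194 of 6142 annotated chains (3.16%). The members' count is near this background and is no result about them. Of the 10, 9 had the higher share in replicate 1, the library with more reads, and likewise 181 of the 194 annotated chains did.

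The Atp2a1 member had 4.09% in replicate 1 and 3.45% in replicate 2 (adjusted p = 4.36e-06, Fisher's exact test). The Ndrg2 member had 41.5% and 31.8% (adjusted p = 7.84e-06, exact test). The leading Nexn member had 35.7% and 17.6% (adjusted p = 5.41e-05, exact test), that of Hspd1, a mitochondrial chaperonin, 29.8% and 11.3% (adjusted p = 0.000647), and Idh3b 90.2% and 81.9% (adjusted p = 0.0247). A 3-base acceptor of Pak1, a p21-activated kinase, was the one member higher in replicate 2, with 20 of 125 reads in replicate 1 and 26 of 59 in replicate 2 (adjusted p = 0.00455, exact test). The others were the retained Acta1 intron, Tnnt1, Hnrnpk and a second Nexn member.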

How the data were processed

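Long-read RNA of 2 libraries was analysed as 1 group. The authors deposited, per library, whole read counts for each transcript model and a matching annotation, whose model classes and attribute names are those of TALON; per the labels the assembly is mm10. Which aligner was run, and in which version, is not given in the sources used here. Models were compared with GENCODE M21. ERCC contigs were set aside (47054 and 16073 reads), and CPM are reads per 1000000 of the rest.

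Members, lists and named genes were chosen with earlier results of these data known. NIC rows of known genes were joined by gene, strand and intron chain, with 2 or more reads in each library, and compared with the annotated transcript sharing most introns. Frames were read from GENCODE transcript sequence, since no genome of the build was used here. Members to name were picked from the 4 members of highest CPM per kind, the 12 of highest share in genes with 50 or more reads, the 2 of highest share per list, called members and the genes with most members, and some of those picked are not reported here; further members (such as those of H2afy, Cars2, Mta1, Mul1, Pitpnb and Mef2a) were named after their values were seen. Shares are mean ± SD over n = 2 or carry exact Clopper-Pearson 95% intervals, and a count of 0 allows up to 3 reads; both cover counting error only, as reads carry no molecular identifiers. Python 3.11.15, numpy 2.4.6 and scipy 1.17.1 were used. Event classes and frame reading were checked on 18 made models and 2087 annotated transcripts (18 and 2085 as made), and the Fisher test on simulated data.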

Additional observations from a re-analysis of the deposited data

How the results depend on the processing

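The number of members followed the read minimum: 331 with at least 5 reads in each library, 2391 with at least 1, and 1463 to 3156 when one library alone was used. The share keeping the annotated stop was 64.8% with at least 1 read, 64.7% to 67.9% from 1 library alone, and within 69.6% to 71.8% under the other alternatives. The median share of gene reads was 18.2% with at least 5 reads, 6.16% with at least 1, 8.33% when chains classed NIC in 1 library or more were summed over classes, 11.98% over complete models only, 11.7% for members with every site annotated, and 5.75% to 9.09% from 1 library. Members with an unannotated site, 13.8% as reported, were 29.1% when summed over classes and 19.5% to 21.5% from 1 library; those with every intron annotated, 66.9%, were 55.1% and 59.4% to 60.4%, and retained introns, 3.32%, were 5.02% with at least 1 read and 3.55% to 5.74% from 1 library. Skipped exons ran from 14.3% to 20.995% over the alternatives. Called members between libraries numbered 17 when summed over classes and 5 when replicate 1 was thinned to the reads of replicate 2, and 7 to 12 otherwise. Leaving out members that skip an exon of 20 bases or fewer left 908, with 71.8% keeping the stop and a median share of 10.3%; that alternative and the one on annotated sites were chosen after seeing the data. No paired analysis was possible because there is 1 group. At 2 to 5 reads a member's share has a wide interval, and members absent from the smaller library may only be too rare for its depth.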
